A study of Mus musculus with 16 samples.

Results

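The genes described here are 10 genes of extracellular matrix proteolysis, the matrix metalloproteinases Mmp8, Mmp9, Mmp12, Mmp13, Mmp14 and Mmp19, the tissue inhibitors of metalloproteinases Timp1 and Timp2, and the urokinase Plau with its receptor Plaur. They were chosen by gene symbol, with earlier results of these data known, and make up 10 of the 24421 genes in the deposited bulk RNA-seq counts. Of these, 9 passed the filter on low counts and were tested. Mmp9, with 126 counts over all libraries, did not pass and is described by its levels only.

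To follow myeloid cells after their entry into a tumour, CD11b+ cells were sorted from subcutaneous MC38-Ova tumours grown in Kaede transgenic C57BL/6 mice, all female and 8 to 14 weeks old at sacrifice. MC38-Ova is a murine colon adenocarcinoma line that carries ovalbumin, and Kaede is a fluorescent protein of the host that violet light turns from green to red. Tumours were illuminated on day 13, so that Kaede-red cells had been in the tumour since then and Kaede-green cells had entered later, and were collected 24h or 72h after photoconversion. Each of the 4 groups (Kaede-green 24h, Kaede-red 24h, Kaede-green 72h and Kaede-red 72h) held 4 libraries of live cells gated as CD45+ and CD11b+, positive for Kaede and negative for TER119 and NK1.1, with the treatment given as Control (NA), all with the genotype given as C57BL/6 and all with the same batch label. The sort was by CD11b and colour, not by cell type, and Kaede-green cells at 72h could have entered at any time over those 72h.

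Matrix metalloproteinases are zinc enzymes that are made as inactive precursors and cut collagens, elastin, laminins and many non-matrix proteins outside the cell. Timp proteins bind their active sites and block them, and Timp2 is also needed at the cell surface for Mmp14 to activate other metalloproteinases. Urokinase bound to its receptor turns plasminogen into plasmin, a broad protease that degrades fibrin and can activate metalloproteinase precursors, and tumour macrophages and monocytes are known sources of many of these proteins.

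The members lie on 7 chromosomes of mm10. Mmp13 (chr9:7272514-7283331), Mmp12 (chr9:7344381-7369499) and Mmp8 (chr9:7558456-7568485) lie in a cluster of 10 metalloproteinase genes on chromosome 9 that spans 427072 bp. Mmp14 (chr14:54431612-54445364) and Plau (chr14:20836660-20843385) are far apart on chromosome 14. Mmp9 is at chr2:164940780-164955850, Mmp19 at chr10:128790910-128800824, Timp1 at chrX:20870166-20874735, Timp2 at chr11:118301069-118355740 on the minus strand and Plaur at chr7:24462484-24475968. In the GENCODE vM21 annotation, Mmp12 overlaps Mmp1b, Timp1 lies within Syn1, and Mmp19 overlaps Tmem198b and Gm47093, each on the other strand, whereas Timp2 overlaps Cep295nl on its own strand. The strand setting of the counting is not given in the sources used here, so reads of these 4 members and of the overlapping genes may not be fully separated.

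Promoter sequences were available from RefSeq (GRCm38.p6) for 7 members, with 8 start sites, and are shown for the members that were higher in Kaede-red cells in every library (Mmp12, Mmp13 and Timp2) and for the one called lower (Plaur). Each is the 250 bases before the start site, 5′ to 3′, with matches to TGANTCA, the AP-1 site, in capitals on either strand. The Mmp13 window is chr9:7272264-7272513 and the Mmp12 window, of the second of its 2 start sites, is chr9:7347124-7347373, both on the plus strand. The Plaur window is chr7:24462233-24462482 on the plus strand and the Timp2 window is chr11:118355412-118355661 on the minus strand.
Mmp13: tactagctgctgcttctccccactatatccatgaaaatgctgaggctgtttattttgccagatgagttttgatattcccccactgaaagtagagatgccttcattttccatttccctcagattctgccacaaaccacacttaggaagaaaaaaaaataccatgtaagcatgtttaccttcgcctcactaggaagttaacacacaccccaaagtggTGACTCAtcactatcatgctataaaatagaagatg
Mmp12: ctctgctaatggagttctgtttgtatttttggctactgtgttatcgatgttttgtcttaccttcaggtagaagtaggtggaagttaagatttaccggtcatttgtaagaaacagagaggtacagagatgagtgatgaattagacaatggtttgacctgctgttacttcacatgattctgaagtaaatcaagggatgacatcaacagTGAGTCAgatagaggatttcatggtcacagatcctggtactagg
Plaur: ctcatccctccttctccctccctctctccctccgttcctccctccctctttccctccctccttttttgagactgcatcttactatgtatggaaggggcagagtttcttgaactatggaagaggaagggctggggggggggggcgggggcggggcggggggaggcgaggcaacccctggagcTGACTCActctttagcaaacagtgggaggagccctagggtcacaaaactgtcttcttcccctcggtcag
Timp2: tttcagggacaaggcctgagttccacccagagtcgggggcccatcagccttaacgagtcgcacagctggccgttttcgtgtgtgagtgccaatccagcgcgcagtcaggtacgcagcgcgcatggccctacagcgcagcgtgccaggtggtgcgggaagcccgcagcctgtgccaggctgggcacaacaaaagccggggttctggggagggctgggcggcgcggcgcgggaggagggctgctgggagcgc
The AP-1 letters stood at bases -35 to -29 of Mmp13, -44 to -38 of Mmp12 and -69 to -63 of Plaur, and in no other window of a member, the first start of Mmp12 included. Thus 3 of 7 members held them, in 3 of their 8 windows, and 6.75% of 32851 promoter windows of the same length did. The 3 include 2 members that were higher and 1 that was lower in Kaede-red cells. Of the other motifs searched on both strands, AGGAAG (ETS) was in 6 of the 7 members (6 of 8 windows) and 29.5% of all promoters. TTGCNNAA (C/EBP) was in 3 members (3 of 8 windows) and 9.56%, and TGACGTCA (CRE) was in none and 1.55%. TATAAA, searched on the gene's strand, was in Mmp13 alone (1 of 8 windows) and in 7.59% of all promoters. These are matches of letters, found in motifs chosen after the levels of the members were known, and binding was not measured. Mmp9, Mmp19 and Plau had no entry.

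Libraries held 3216858 to 15423085 counts, of which the ribosomal RNA gene Rn45s took 55.8 to 93.4%, leaving 468092 to 912689 counts in Kaede-green and 758192 to 5472477 in Kaede-red libraries. The Rn45s share moved with colour, with a mean of 90.6% ± 2.92 (SD, n = 4) in Kaede-green and 75.6% ± 9.73 in Kaede-red libraries at 24h, and 86.5% ± 5.19 and 66.5% ± 7.78 at 72h. Levels are given as CPM, the counts per 1000000 counts of a library scaled by the trimmed mean of M values (TMM). On this scale a single count was worth 0.243 to 0.557 CPM in Kaede-green and 0.0210 to 0.181 CPM in Kaede-red libraries, so levels of a few CPM rest on few reads in Kaede-green cells. The sort markers Itgam (CD11b) and Ptprc (CD45) were present in every library, at group means of 74.9 to 148 CPM and 92.9 to 149 CPM, and both were highest in Kaede-red cells at 72h. No library was a copy of another.

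Of the counts outside Rn45s the members as a group held 0.0354% ± 0.0080 (SD, n = 4) in Kaede-green 24h, 0.0882% ± 0.0109 in Kaede-red 24h, 0.0372% ± 0.0061 in Kaede-green 72h and 0.108% ± 0.0141 in Kaede-red 72h libraries. The ranges did not overlap, the highest Kaede-green library having 0.0446% and the lowest Kaede-red library 0.0749%. With libraries scaled by these same counts, the median of all genes was also higher in Kaede-red cells, by 0.91 on the log2 scale at 24h and 0.69 at 72h. Over both times, 5 of the 9 tested members were called higher in Kaede-red cells and 1 was called lower (edgeR's quasi-likelihood test, adjusted p under 0.05 over 9642 genes). Among all genes tested, 9.96% were called higher and 10.3% lower. Since the members were chosen with earlier results known, these shares are set beside them as a description only. The median log2 fold change was 0.91 over the 9 members and 0.06 over all genes. In 3 members (Mmp12, Mmp13 and Timp2), every Kaede-red library was above every Kaede-green library, which held for 1.19% of all genes, and the reverse held for none of the members and 1.74% of all genes. In bulk samples, fewer cells of a type and less RNA per cell cannot be told apart.

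**Figure D1:**
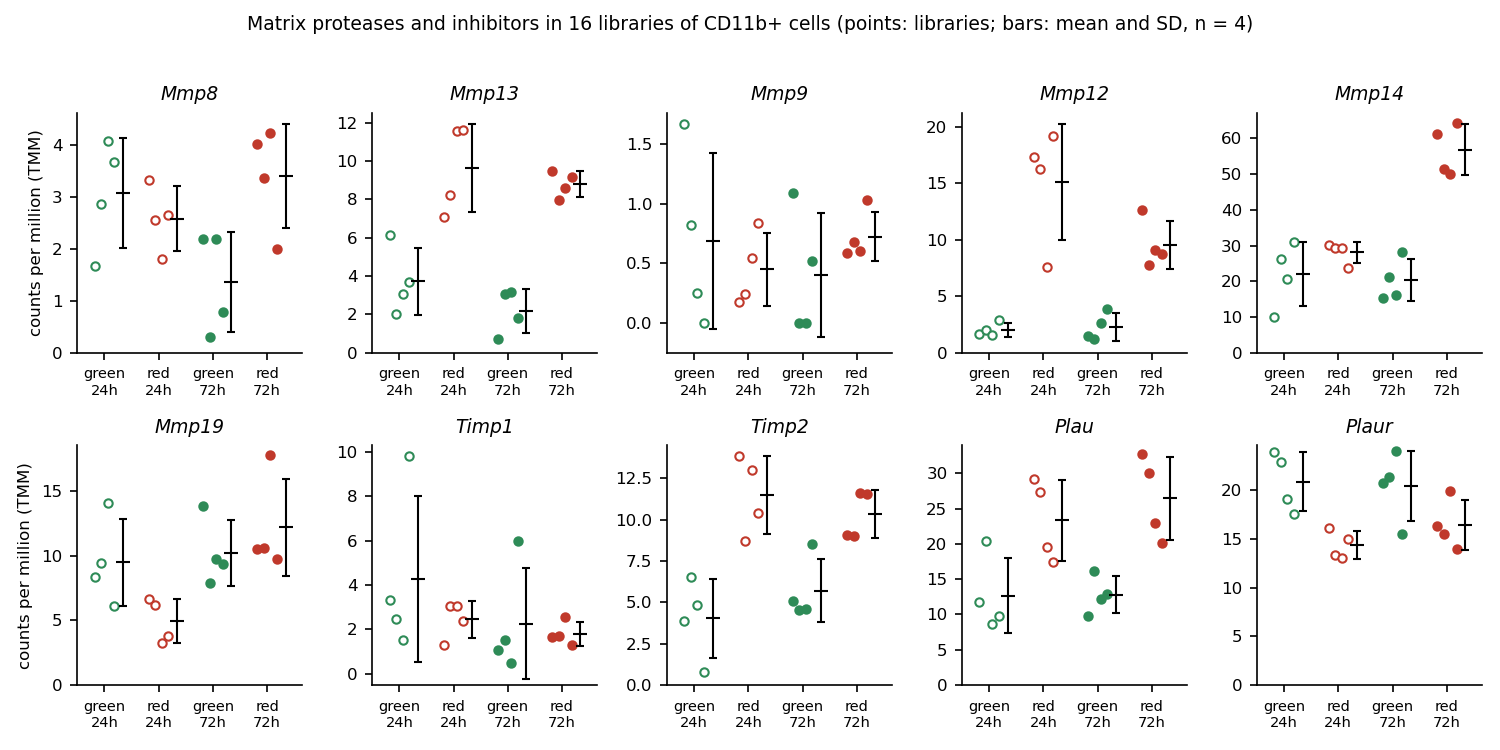
TMM-scaled CPM of each member in the 16 libraries of sorted CD11b+ cells. Points are libraries, open at 24h and filled at 72h, and bars show the mean and SD of 4 libraries. Mmp12, Mmp13 and Timp2 were higher in all Kaede-red than in all Kaede-green libraries, and the 72h Kaede-red libraries had the most Mmp14 (mean 56.9 CPM).

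Mmp12, the macrophage metalloelastase, had the largest difference of the members. Kaede-green libraries held 1.67, 2.04, 1.53 and 2.86 CPM of Mmp12 at 24h and 1.46, 1.22, 2.67 and 3.89 CPM at 72h, on 3 to 15 counts each. Kaede-red libraries held 17.3, 16.3, 7.60 and 19.2 CPM at 24h and 12.6, 7.80, 9.06 and 8.78 CPM at 72h, on 42 to 418 counts. The lowest Kaede-red library was thus well above the highest Kaede-green one at each time. The level was 5.52-fold higher in Kaede-red cells over both times (log2 fold change 2.46, SE 0.25, adjusted p = 1.29e-08). It was 7.63-fold higher at 24h (adjusted p = 3.43e-06) and 3.99-fold higher at 72h (adjusted p = 8.81e-05). The change of this difference from 24h to 72h was -0.94 on the log2 scale (SE 0.54, adjusted p = 0.418). Mmp12 kept its call in all 16 fits that left out a library, which share most of their libraries. It passed the filter on low counts through its Kaede-red libraries, where it was high, since too few Kaede-green libraries had enough counts.

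Mmp13, an interstitial collagenase, was the other metalloproteinase with separate colours. In Kaede-green cells it was at 6.13, 2.04, 3.06 and 3.67 CPM at 24h and at 0.729, 3.05, 3.16 and 1.82 CPM at 72h. In Kaede-red cells it was at 7.09, 8.26, 11.6 and 11.6 CPM at 24h and at 9.49, 7.97, 8.60 and 9.18 CPM at 72h. The Kaede-red libraries at 72h lay close together, and the highest Kaede-green library (replicate 1 at 24h) came near the lowest Kaede-red one. Mmp13 had 2 to 13 counts in Kaede-green and 57 to 437 in Kaede-red libraries, and it too passed the filter through the latter. The difference was 3.24-fold over both times (log2 fold change 1.69, SE 0.24, adjusted p = 2.43e-06), 2.69-fold at 24h (adjusted p = 0.00578) and 3.89-fold at 72h (adjusted p = 8.55e-05).

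The other collagenase, Mmp8, known from neutrophils, was at low levels in every group, with 1 to 16 counts in Kaede-green and 10 to 134 counts in Kaede-red libraries. Its mean level was 3.07 ± 1.06 CPM (SD, n = 4) in Kaede-green 24h, 2.58 ± 0.62 CPM in Kaede-red 24h, 1.36 ± 0.97 CPM in Kaede-green 72h and 3.40 ± 1.01 CPM in Kaede-red 72h libraries. The groups overlapped at both times. It was not called over both times (log2 fold change 0.50, SE 0.32, adjusted p = 0.289) or at 24h (-0.28, adjusted p = 0.777). At 72h the difference was 1.29 (SE 0.47, adjusted p = 0.0539), and it was called in 4 of 16 fits without a library, namely Kaede-green 24h replicate 4 (1.27), Kaede-green 72h replicate 1 (1.53) or replicate 3 (1.67), or Kaede-red 72h replicate 4 (1.49). It was also called with no filter and with library size only (3.23) or outside Rn45s (1.90). On these 2 scales the median gene was higher too, by 2.04 and 0.69. The gelatinase Mmp9 had 0 to 3 counts in each Kaede-green and 2 to 49 counts in each Kaede-red library, and group means of 0.69 ± 0.74, 0.45 ± 0.30, 0.40 ± 0.52 and 0.72 ± 0.21 CPM in Kaede-green 24h, Kaede-red 24h, Kaede-green 72h and Kaede-red 72h. A library with 0 counts of Mmp9 allows up to 3 counts, which is 1.22 CPM in Kaede-green 24h replicate 4. That bound, for a single library, is more than the mean of any group. Mmp9 was not tested in the main fit, so a difference is neither shown nor excluded here.

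Neutrophil markers were measured beside these members, since Mmp8 and Mmp9 are stored in neutrophil granules. Of 11 measured markers of neutrophils, only Csf3r passed the filter on low counts, and Ngp was at 0 in all 16 libraries. At 24h their summed level ranged from 6.13 to 9.47 CPM in Kaede-green libraries and from 7.24 to 11.6 CPM in Kaede-red ones. At 72h the ranges were 8.74 to 11.7 CPM and 15.8 to 19.0 CPM. Without Csf3r, which monocytes also express, little was left, since Csf3r alone had means of 7.08, 8.09, 7.40 and 16.3 CPM in Kaede-green 24h, Kaede-red 24h, Kaede-green 72h and Kaede-red 72h. The higher sum of Kaede-red cells at 72h thus came from Csf3r. S100a8 and S100a9 went the other way at 72h, with Kaede-green means of 1.10 and 1.15 CPM against Kaede-red means of 0.17 and 0.32 CPM. These Kaede-green values rest on at most 7 counts per library. Cxcr2, Mpo and Prtn3 also had lower means in Kaede-red cells at 72h, whereas Retnlg, Ltf and Elane had higher ones. The granule genes Camp, Ltf, Elane and Mpo each had at most 6 counts in any library, and Prtn3 had at most 8.

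Mmp14, the membrane-anchored metalloproteinase that cuts collagen at the cell surface, was called higher in Kaede-red cells at 72h and not at 24h. Kaede-green libraries had 10.03, 26.2, 20.7 and 31.0 CPM at 24h and 15.3, 21.3, 16.3 and 28.3 CPM at 72h. Kaede-red libraries had 30.1, 29.4, 29.3 and 23.8 CPM at 24h and 61.3, 51.6, 50.1 and 64.4 CPM at 72h. At 24h the colours overlapped and the difference was not called (log2 fold change 0.34, 95% interval -0.15 to 0.83, adjusted p = 0.453). At 72h Mmp14 was 2.79-fold higher in Kaede-red cells with no overlap (log2 fold change 1.48, SE 0.23, adjusted p = 3.18e-05), and over both times it was 1.88-fold higher (0.91, SE 0.17, adjusted p = 0.000131). The change of the difference with time, 1.14 on the log2 scale (SE 0.33), had an adjusted p of 0.0798. It was called in the fits without Kaede-green 24h replicate 1 (1.36) or Kaede-green 72h replicate 4 (1.35) and by DESeq2's Wald test (1.12, adjusted p = 0.016), so it was near the threshold.

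Mmp19, a metalloproteinase of basement membrane proteins, went the other way at 24h. At 24h its levels were 8.36, 9.40, 14.04 and 6.12 CPM in Kaede-green libraries and 6.66, 6.19, 3.26 and 3.80 CPM in Kaede-red libraries. At 72h its levels were 13.8, 7.92, 9.72 and 9.34 CPM in Kaede-green and 10.5, 10.6, 17.8 and 9.77 CPM in Kaede-red cells. The colours overlapped at both times, and Kaede-red cells at 24h were the low group. Mmp19 was called lower in Kaede-red cells at 24h (log2 fold change -0.95, SE 0.30, adjusted p = 0.0476) but not over both times (-0.36, adjusted p = 0.23) or at 72h (0.24, adjusted p = 0.615). The call at 24h was lost in 11 of 16 fits without a library, in which the value lay between -1.05 and -0.67, with the smallest value without Kaede-green 24h replicate 3. The change of the difference with time was 1.19 (SE 0.41, adjusted p = 0.142).

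Timp2, the inhibitor that pairs with Mmp14, was higher in Kaede-red cells with no overlap at either time. At 24h Kaede-green libraries held 3.90, 6.54, 4.85 and 0.816 CPM of Timp2 and Kaede-red libraries 13.8, 8.74, 13.03 and 10.4 CPM. At 72h Kaede-green libraries held 5.10, 4.57, 4.62 and 8.56 CPM and Kaede-red libraries 9.10, 9.03, 11.6 and 11.6 CPM. The lowest value rested on 2 counts, and Kaede-green 72h replicate 4 was just under the lowest Kaede-red libraries. Timp2 was 2.23-fold higher over both times (log2 fold change 1.16, SE 0.22, adjusted p = 0.000251) and 2.80-fold higher at 24h (adjusted p = 0.00402). At 72h it was 1.79-fold higher and did not pass the test (0.84, SE 0.30, adjusted p = 0.0513), although it did in 3 of 16 fits, those without Kaede-green 24h replicate 2 (0.85) or 4 (0.82) or Kaede-green 72h replicate 4 (1.13, adjusted p = 0.0171), and by DESeq2 (0.80, adjusted p = 0.0436), with no filter (0.98, adjusted p = 0.0128), with only the groups compared (0.80, adjusted p = 0.0255), with the replicate block (0.87, adjusted p = 0.0468) and with both scalings by library size.

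Timp1, the secreted inhibitor that binds Mmp9, did not follow Timp2. It had 2 to 24 counts in Kaede-green and 15 to 68 in Kaede-red libraries. Kaede-green libraries held 3.34, 2.45, 1.53 and 9.79 CPM of Timp1 at 24h and 1.09, 1.52, 0.486 and 5.96 CPM at 72h, so that replicate 4 stood above the others at each time. Kaede-red libraries were at 1.31, 3.04, 3.08 and 2.39 CPM at 24h and at 1.64, 1.71, 2.57 and 1.32 CPM at 72h. No difference was called, over both times (log2 fold change -0.60, 95% interval -1.41 to 0.20, adjusted p = 0.298), at 24h (-0.79, adjusted p = 0.447) or at 72h (-0.42, adjusted p = 0.675). The direction rested on these libraries, since the value was 0.01 over both times and 0.80 at 72h without Kaede-green 72h replicate 4, and 0.05 at 24h without Kaede-green 24h replicate 4.

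Plau, the urokinase, was higher in Kaede-red cells at both times. Kaede-green libraries had 11.7, 20.4, 8.68 and 9.79 CPM at 24h and 9.84, 16.1, 12.2 and 12.97 CPM at 72h, and Kaede-red libraries had 29.2, 27.3, 19.6 and 17.5 CPM at 24h and 32.7, 30.1, 22.9 and 20.2 CPM at 72h. The colours were separate at 72h, whereas at 24h a Kaede-green library (replicate 2) lay above the 2 lowest Kaede-red ones. The difference was 1.97-fold over both times (log2 fold change 0.98, SE 0.18, adjusted p = 0.000135), 1.87-fold at 24h (0.90, SE 0.26, adjusted p = 0.0277) and 2.07-fold at 72h (1.05, SE 0.25, adjusted p = 0.00287). At 24h the call was lost in 5 of 16 fits, those without Kaede-green 24h replicate 1, 3 or 4 or Kaede-red 24h replicate 1 or 2, with values of 0.72 to 0.87. It was also lost with only the groups compared and with the Rn45s share as a covariate.

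The urokinase receptor Plaur was lower in Kaede-red cells, by a smaller amount. At 24h Kaede-green libraries had 24.0, 22.9, 19.1 and 17.5 CPM of Plaur and Kaede-red libraries 16.1, 13.4, 13.03 and 15.02 CPM, with no overlap. At 72h they were 20.8, 21.3, 24.1 and 15.6 CPM in Kaede-green and 16.4, 15.5, 19.9 and 13.9 CPM in Kaede-red cells, which overlapped. Plaur was called over both times (log2 fold change -0.42, SE 0.14, adjusted p = 0.0342), but not at 24h (-0.52, adjusted p = 0.13) or at 72h (-0.33, adjusted p = 0.284). Leaving out 1 library ended this call in 8 of 16 fits, those without Kaede-green 24h replicate 1 or 2, Kaede-red 24h replicate 2 or 3, Kaede-green 72h replicate 3 or Kaede-red 72h replicate 1, 2 or 4, with values between -0.42 and -0.38.

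Ratios within a library do not depend on how libraries were scaled against each other. The log2 ratio of Plau to Plaur counts (with 0.5 added to each) was -1.02, -0.16, -1.13 and -0.83 in Kaede-green 24h and 0.85, 1.03, 0.58 and 0.22 in Kaede-red 24h libraries. At 72h it was -1.06, -0.40, -0.98 and -0.26 in Kaede-green and 1.00, 0.96, 0.20 and 0.53 in Kaede-red libraries. Receptor reads thus outnumbered urokinase reads in all 8 Kaede-green libraries and the reverse held in all 8 Kaede-red libraries. The means were close at the 2 times, at -0.78 ± 0.43 and -0.68 ± 0.40 (SD, n = 4) in Kaede-green cells and at 0.67 ± 0.35 and 0.67 ± 0.38 in Kaede-red cells. Since 2 members are combined, the ratio is given as a description with no test.

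The ratio of Mmp14 to Timp2 separated the 24h from the 72h libraries of Kaede-red cells, with higher values at 72h. Its log2 value was 1.12, 1.74, 1.16 and 1.19 in Kaede-red 24h libraries and 2.75, 2.51, 2.10 and 2.48 in Kaede-red 72h libraries, with no overlap. In Kaede-green cells it was 1.30, 1.97, 2.06 and 4.94 at 24h, where the last value rests on 2 counts of Timp2, and 1.55, 2.19, 1.79 and 1.71 at 72h. Mmp14 reads outnumbered Timp2 reads in all 16 libraries. For Mmp12 to Timp2 the group means were -0.67 ± 1.52, 0.33 ± 0.78, -1.34 ± 0.48 and -0.12 ± 0.41, and for Mmp9 to Timp1 they were -2.50 ± 2.14, -2.44 ± 0.78, -2.25 ± 1.58 and -1.27 ± 0.67, in Kaede-green 24h, Kaede-red 24h, Kaede-green 72h and Kaede-red 72h. In Kaede-green cells these ratios rest on few counts.

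**Figure D2:**
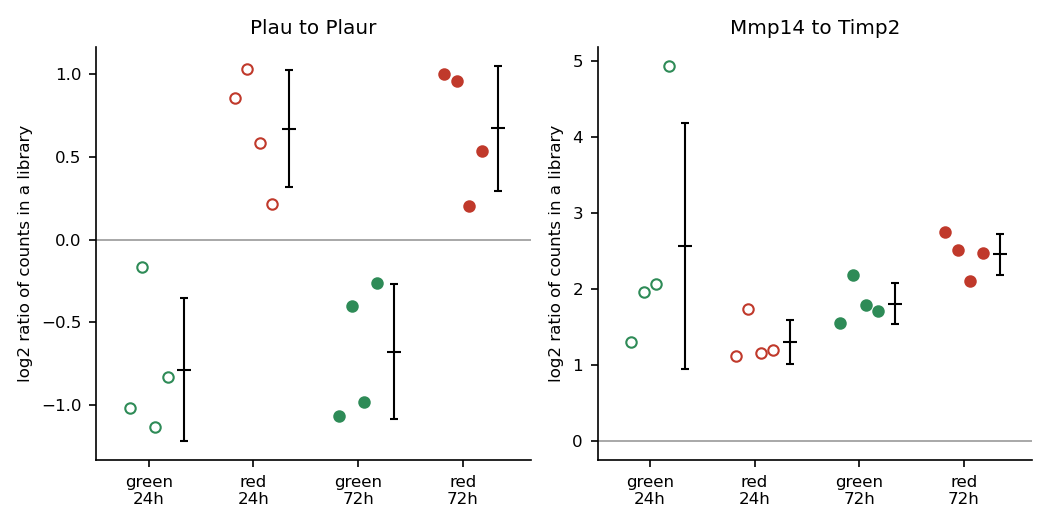
Log2 ratio of the counts of 2 members within each library, Plau to Plaur and Mmp14 to Timp2. Points are libraries, open at 24h and filled at 72h, and bars show the mean and SD of 4 libraries. The Plau to Plaur ratio lay below 0 in the Kaede-green and above 0 in the Kaede-red libraries, from -1.13 to -0.16 and from 0.20 to 1.03.

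By time, the counts of members called were close to those over both times. At 24h, 4 of 9 members were called higher (Mmp12, Mmp13, Timp2 and Plau) and 1 lower (Mmp19), where 3.2% and 4.3% of all genes were called (7.51% in either direction). The libraries did not overlap for 3 members that were higher (7.07% of all genes) and 1 that was lower (5.44%), the latter being Plaur. At 72h, 4 were called higher (Mmp12, Mmp13, Mmp14 and Plau), where 8.07% of all genes were, and none of the members but 8.76% of all genes were called lower. There, 5 members were higher with no overlap, against 13% of all genes, and none was lower with no overlap, against 9.52%. The comparisons at 24h and at 72h used different libraries, while that over both times used them all.

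**Figure D3:**
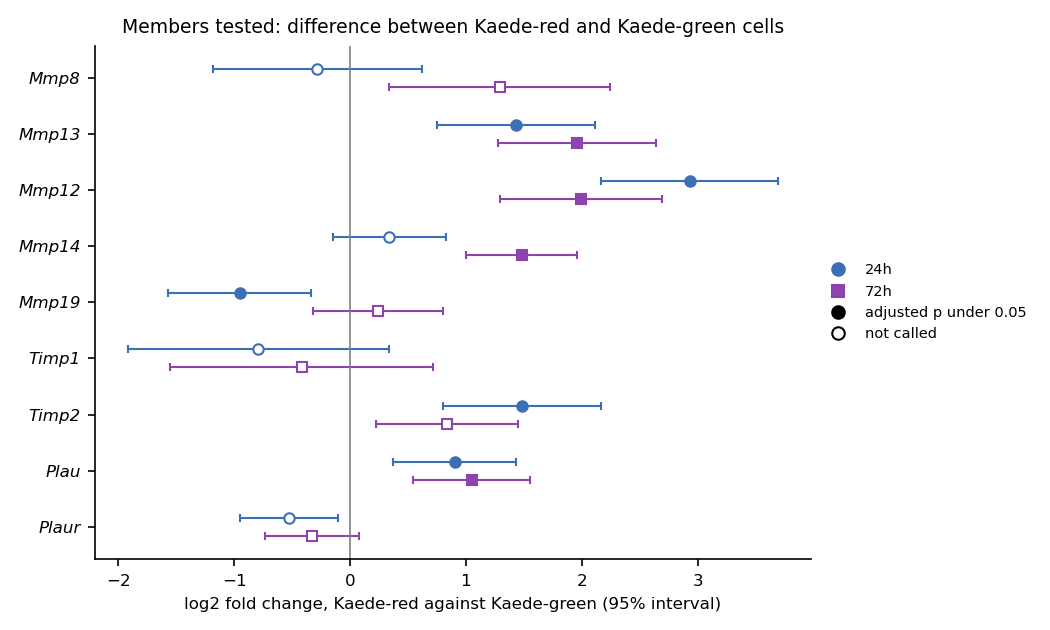
Log2 fold change of Kaede-red against Kaede-green cells for the 9 tested members at 24h (circles) and 72h (squares), with 95% intervals from edgeR. Filled symbols passed an adjusted p of 0.05. Mmp12 had the largest value at 24h (2.93), and Mmp14 had 0.34 at 24h and 1.48 at 72h.

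To ask what changed with time within a colour, the 72h libraries were compared with the 24h libraries. In Kaede-green cells no member was called, and 0 of 9642 genes were called by edgeR (0% higher and 0% lower, with no overlap between times in 1.9% in the higher and 1.09% in the lower direction), although 835 had an unadjusted p under 0.05. By DESeq2, 3 genes were called higher and 11 lower, none of them a member. The member with the lowest p was Mmp8, with a log2 fold change of -1.23 (SE 0.53, adjusted p = 0.5), and the other 8 had values from -0.84 to 0.49. In Kaede-red cells, Mmp14 was 2.02-fold higher at 72h (log2 fold change 1.02, SE 0.22, adjusted p = 0.00463) and Mmp19 was 2.38-fold higher (1.25, SE 0.27, adjusted p = 0.00432), where 4.91% of all genes were called higher and 3.76% lower (8.67% in all). Both did so with no overlap between times, as did 11.8% of all genes. Mmp12 had the lowest value, -0.68 (SE 0.26, adjusted p = 0.104), and it was called in the fit of the Kaede-red groups alone (adjusted p = 0.0418). The other 6 members lay between -0.47 and 0.34. The change of the red-green difference from 24h to 72h was called for no member (0 of 9 by edgeR, with 3 at an unadjusted p under 0.05, namely Mmp8, Mmp14 and Mmp19, and 1 by DESeq2), and for 0.436% of all genes in the higher and 0.332% in the lower direction.

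Levels were compared between members only per kilobase of exon, as reads per kilobase of exon on the CPM scale (RPKM). In Kaede-green cells Plaur was the most abundant member, at 7.98 ± 1.16 RPKM at 24h and 7.81 ± 1.36 RPKM at 72h (SD, n = 4), followed by Plau at 5.34 ± 2.25 and 5.40 ± 1.10 RPKM. In Kaede-red cells the order was reversed, with Plau at 9.88 ± 2.42 and 11.2 ± 2.49 RPKM and Plaur at 5.50 ± 0.55 and 6.28 ± 0.97 RPKM. Mmp14 came next to Plau in Kaede-red cells at 72h, at 9.54 ± 1.19 RPKM, within the spread of Plau. Several neighbours in the order lay within 1 SD of each other, among them Timp2 and Timp1 (2.95 ± 0.61 and 2.76 ± 0.93 RPKM) in Kaede-red cells at 24h and Mmp19 and Mmp13 (3.45 ± 1.07 and 3.30 RPKM) at 72h. Mmp13 was at 1.39 ± 0.65 and 0.82 ± 0.43 RPKM in Kaede-green cells and at 3.60 ± 0.87 and 3.30 ± 0.25 RPKM in Kaede-red cells. Mmp12 was at 0.28 and 0.32 RPKM in Kaede-green and at 2.09 and 1.32 RPKM in Kaede-red cells, and Mmp9 was lowest in all groups (0.11 to 0.20 RPKM). With the longest transcript as the length, 5 to 8 of the 10 members kept their rank, and Mmp14 was above Plau in Kaede-red cells at 72h (17.6 against 11.3 RPKM) and above it in both Kaede-green groups.

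**Figure D4:**
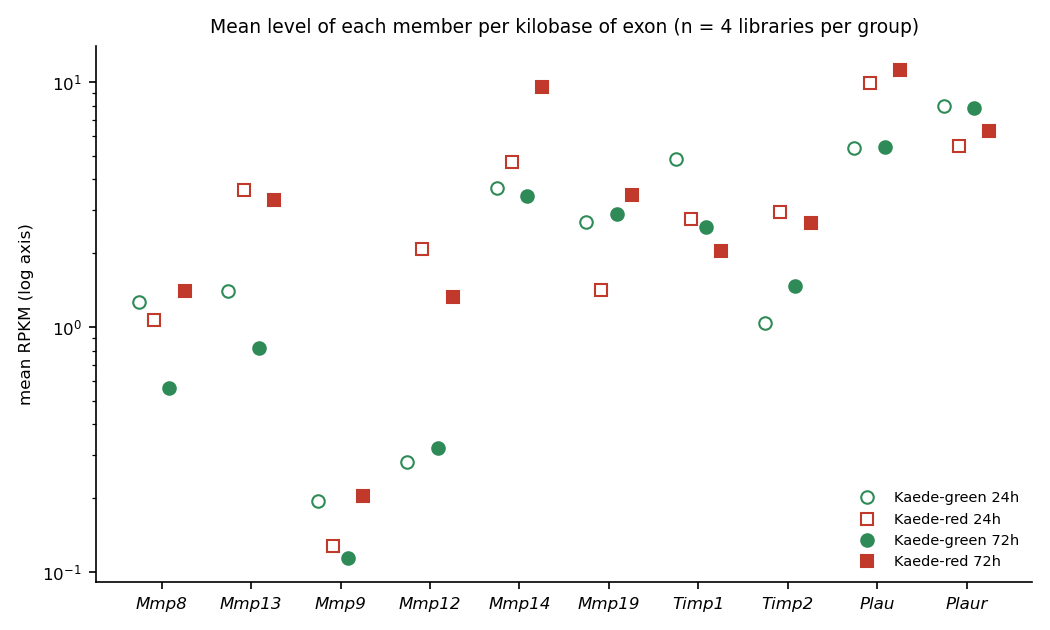
Mean level per kilobase of exon (RPKM, log axis) of each member in the 4 groups, with 4 libraries each. Circles are Kaede-green and squares Kaede-red cells, open at 24h and filled at 72h. Plau and Plaur changed places between Kaede-green and Kaede-red cells, and Mmp9 was lowest throughout, at 0.11 to 0.20 RPKM.

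The scaling of libraries matters for the members with small differences. Without TMM factors, the median gene was 2.20 higher on the log2 scale in Kaede-red cells when libraries were scaled by their total counts, and 0.81 higher when scaled by the counts outside Rn45s, and 9318 genes were then called higher and 10 lower, or 5427 and 232, in place of 960 and 990. On these scales Plaur was higher in Kaede-red cells by 1.72 and 0.34, which is 0.48 and 0.47 below the median gene and was called on both, and Mmp19 and Timp1 also changed sign while staying below the median gene. Mmp12, Mmp13, Mmp14, Timp2 and Plau were called higher in Kaede-red cells on every scale. With the Rn45s share of each library as a term in the model, Mmp12 (2.31, adjusted p = 0.000733) and Mmp13 (2.10, adjusted p = 0.000966) were still called, whereas Mmp14 (0.61, adjusted p = 0.368), Timp2 (0.88, adjusted p = 0.257), Plau (0.67, adjusted p = 0.38) and Plaur (-0.25, adjusted p = 0.825) were not. In that fit 51 genes were called higher and 105 lower.

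Macrophage markers moved with colour in the same direction as most members, and their part in the result was not tested. The summed level of 10 macrophage markers (Adgre1, Csf1r, Cd68, Mertk, C1qa, C1qb, C1qc, Mrc1, Apoe and Trem2) ranged from 166 to 266 CPM in Kaede-green and from 403 to 721 CPM in Kaede-red libraries at 24h, and from 198 to 261 and from 682 to 737 CPM at 72h. Over both times 9 of the 10 were called higher in Kaede-red cells, with a median log2 fold change of 1.52. Of the members, Mmp12 and Mmp13 were above that median (2.46 and 1.69) and Timp2, Plau and Mmp14 below it (1.16, 0.98 and 0.91). The summed level of 8 monocyte markers ranged from 1088 to 1736 CPM in Kaede-green and from 568 to 681 CPM in Kaede-red libraries at 24h, and from 828 to 1226 and from 644 to 882 CPM at 72h. Of these, 4 were called lower in Kaede-red cells over both times, 4 at 24h and only 1 at 72h, and none was called higher. Their median log2 fold change was -1.03 at 24h but 0.30 at 72h. The sums leaned on Plac8, whose Kaede-green means were 847 CPM (24h) and 541 CPM (72h), against Kaede-red means of 223 and 145 CPM. By 72h only Plac8 and Chil3 had a lower mean in Kaede-red cells, so the lower sum there does not describe most of these markers.

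Fibroblasts and endothelial cells also make several of these proteins. The summed level of 10 fibroblast markers was 45.2 to 57.1 CPM in Kaede-green and 21.0 to 40.6 CPM in Kaede-red libraries at 24h, and 47.5 to 54.5 and 13.4 to 20.4 CPM at 72h, and 3 of them (Col1a1, Col1a2 and Col3a1) were called lower in Kaede-red cells over both times. The part of these cells in the members' values was not tested. Endothelial markers summed to 9.75 to 19.0 CPM in Kaede-green and 17.7 to 36.7 CPM in Kaede-red libraries, of which Pecam1 and Kdr were called higher and Cdh5 lower, and Tek and Emcn had at most 4 counts in any library. Markers of tumour epithelium summed to at most 3.67 CPM in any library, and those of B cells to at most 2.45 CPM, of dendritic cells to 5.08 CPM, of T and NK cells to 5.71 CPM and of erythroid cells to 11.04 CPM.

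The other genes of matrix proteolysis were counted from lists that name 55 further genes, of which 21 passed the filter. Over both times 5 were called higher in Kaede-red cells and 2 lower, at 24h none and 2, and at 72h 6 and 2. Among all genes tested, 9.96% were called higher and 10.3% lower over both times, 3.2% and 4.3% at 24h and 8.07% and 8.76% at 72h, and the 2 of 21 called lower over both times are near that share. Of 17 other metalloproteinases only Mmp25 passed the filter, and of 5 other inhibitors (Timp3, Timp4, Reck, A2m and Pzp) none did. Mmp2, the gelatinase that Mmp14 activates, was at group means of 0.30 to 0.53 CPM, and Timp3, the matrix-bound inhibitor, was at 0.20 to 0.63 CPM.

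Mmp25, a metalloproteinase anchored to the membrane by a lipid, was called higher in Kaede-red cells at 72h and not at 24h. It had 0 to 6 counts in Kaede-green, 7 to 16 in Kaede-red 24h and 21 to 313 in Kaede-red 72h libraries. Mmp25 passed the filter on low counts only through Kaede-red cells at 72h, the group where it was high. Its calls are thus not independent of the filter and add no separate support to those of Mmp14. At 24h Kaede-green libraries had 1.67, 2.45, 0 and 0.408 CPM of Mmp25 and Kaede-red libraries 1.40, 1.94, 1.27 and 0.967 CPM. At 72h it was at 1.09, 0.914, 0.486 and 1.30 CPM in Kaede-green and 6.13, 3.87, 3.17 and 6.58 CPM in Kaede-red cells. Only the last group stood apart. The log2 fold change was 0.47 at 24h (adjusted p = 0.743) and 2.41 at 72h (SE 0.53, adjusted p = 0.0015), and 1.44 over both times (adjusted p = 0.0122), while its change with time was not called (1.94, SE 0.89, adjusted p = 0.285). Mmp25 overlaps other annotated genes on the other strand, so its reads may not be fully separated.

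In the plasminogen system, 6 of 14 further genes were tested. S100a10, a subunit of a plasminogen receptor, was lower in Kaede-red cells at each time (log2 fold change -1.70 over both times, SE 0.16, adjusted p = 3.16e-09). Lrp1, a receptor that takes up many extracellular ligands, was higher (0.75, SE 0.14, adjusted p = 0.000112). The inhibitor Serpinb2 (0.44 to 1.01 CPM) and the tissue activator Plat (0.17 to 0.73 CPM) did not pass the filter. Eno1, another plasminogen receptor named after its value was seen, was called at 72h (0.58, adjusted p = 0.0345).

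Among 8 tested ADAM and ADAMTS proteases, Adam17, the sheddase of tumour necrosis factor, and Adam8, a sheddase of myeloid cells, were called higher in Kaede-red cells over both times (log2 fold change 0.78, SE 0.17, adjusted p = 0.000774, and 0.68, SE 0.14, adjusted p = 0.000481). Both were called at 72h (0.92 and 0.93) and not at 24h (0.64 and 0.44). Adamts1, chosen after its value was seen, was called lower at 72h (-1.91, SE 0.54, adjusted p = 0.0119). Among 6 tested partners of metalloproteinases, Furin, the convertase that activates the Mmp14 precursor, was higher (0.72, SE 0.18, adjusted p = 0.00432), and Thbs1, which binds metalloproteinases, was lower (-0.54, SE 0.15, adjusted p = 0.00923). Bsg, an inducer of metalloproteinases, was at means of 29.6 to 37.9 CPM and was not called (-0.05, SE 0.13, adjusted p = 0.83). In Kaede-red cells, 5 of the 21 genes were called higher at 72h than at 24h, Mmp25, Lrp1, Furin, Thbs1 and Cd44 (the last named after its value was seen), and none was called lower. Of these, Mmp25 had passed the filter only through its Kaede-red 72h libraries.

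**Figure D5:**
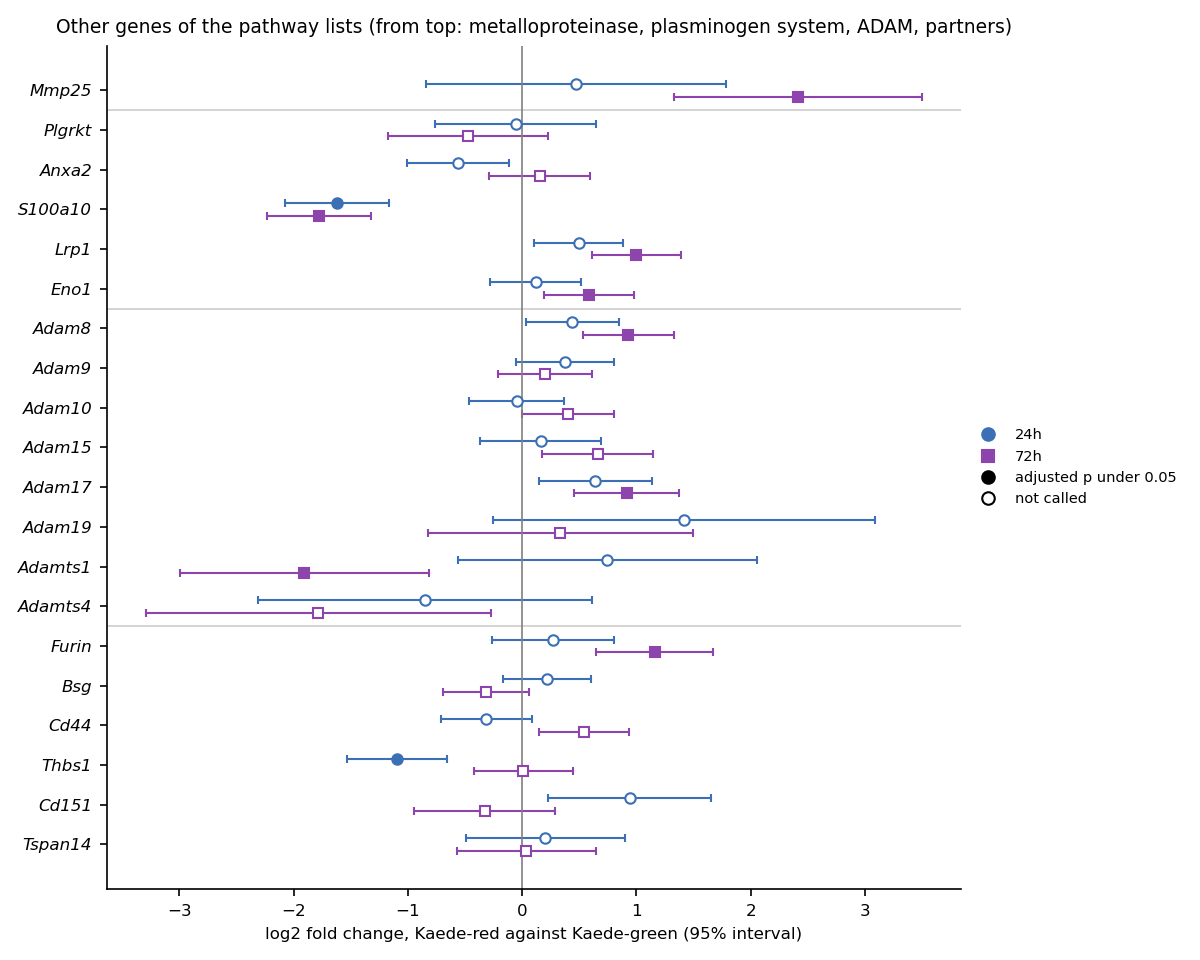
Log2 fold change of Kaede-red against Kaede-green cells for 20 of the 21 tested genes of the pathway lists at 24h (circles) and 72h (squares), with 95% intervals from edgeR. Filled symbols passed an adjusted p of 0.05, and grey lines divide the lists. S100a10 was lower at both times (-1.62 and -1.78), and Mmp25 was far higher at 72h (2.41) than its value at 24h (0.47).

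Members were then compared with all genes of a mean log2 CPM of at least 4 by Pearson's r over the 16 libraries, as a description of likeness. These libraries share the contrast of colour, so genes that differ between colours resemble each other. Mmp12 was most like C1qc (r = 0.92), Lgmn (0.92) and C1qb (0.92), 2 of which are complement genes of macrophages. Mmp13 was most like the mannose receptor Mrc1 (0.92), Abca1 (0.87) and Id2 (0.85), and Timp2 was most like Cxcl16 (0.92), Adam9 (0.91) and Pira4 (0.90). Plau was closest to the lipid droplet gene Plin2 (0.92), Il10rb (0.92) and the cathepsin Ctsb (0.92), and genes close to Mmp14 included Pak2 (0.95) and Wasf2 (0.94).

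For Plaur, Mmp19, Mmp8 and Timp1 the genes were others. Plaur was most like Rps4x (0.86), Nfkbie (0.84) and Chd7 (0.83), and genes close to Mmp19 included Vim (0.89) and Lsp1 (0.87). For Mmp8 (Ctnnb1, Pgam1 and Clec4a1, 0.71 to 0.77) and Timp1 (Zfp207, Peli1 and Tmem59, 0.53 to 0.72) the likeness was weaker. Among the 36 pairs of members, r ranged from -0.75 (Mmp12 with Plaur) to 0.77 (Mmp12 with Mmp13), with a median of 0.07. With group means removed, the same 2 pairs were at -0.16 and -0.0048, and all pairs lay between -0.62 and 0.51.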

How the data were processed

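Bulk RNA-seq was measured in 16 libraries, 4 per group, and groups were taken from the labels. The authors deposited raw read counts per gene, made by removing the first 3 bases of read 1, trimming with Trim Galore, checking with FastQC, aligning to mm10 with HISAT2 and counting with featureCounts, whose versions, annotation and strand setting are not given in the sources used here. CPM, RPKM and log2 values were computed here from the deposited counts.

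Genes were kept by filterByExpr with default settings, scaled by TMM and tested by edgeR's quasi-likelihood test (edgeR 4.0.16, limma 3.58.1, R 4.3.3) in 1 fit of the 16 libraries with 1 mean per group, and p-values were adjusted by Benjamini-Hochberg over all 9642 genes tested and called under 0.05. The library sizes used by the filter included Rn45s, whose mean share was higher in Kaede-green libraries. The SE is the log2 fold change divided by the square root of F. RPKM used the union of exons in GENCODE vM21 on mm10. Alternatives were DESeq2 1.42.0, RLE factors, library size with or without Rn45s, no filter, at least 10 counts in every library, only the groups compared, a replicate block, the Rn45s share as a covariate, another gene length and leaving out each library. The edgeR steps were checked on simulated counts. No column of sample values was left unused.

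The members and lists were chosen with earlier results of these data known. Named genes were the 10 members, 9 genes of the pathway lists whatever their result, up to 3 called genes with the largest change per list and the 3 genes most alike to each member. Some genes that this rule names are not reported here. The labels do not say which mice gave which library. The study's plot of this bulk RNA-seq describes its points as tumours from independent mice. It does not say whether a Kaede-green and a Kaede-red library came from the same mouse. The p-values measure the spread between libraries of a group, and counting intervals cover counting error only. Replicate numbers were shared between groups, but no source states a pairing, so the numbers were not taken as pairs. Deviations of libraries with the same number correlated only weakly, at 0.049 to 0.153 at 24h and -0.018 to 0.029 at 72h. That cannot decide whether they shared a mouse, and a pairing, if there was one, is ignored in the main fit.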

Additional observations from a re-analysis of the deposited data

Results flagged for a closer look

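In 3 of 40 groups of 4 libraries (10 members in 4 groups), 1 library lay far from the others, where chance alone marks about 1 in 20 groups. Mmp14 was lowest in Kaede-red 24h replicate 4, at 23.8 CPM with the nearest library at 29.3 CPM. Mmp19 was highest in Kaede-red 72h replicate 3, at 17.8 CPM with the nearest at 10.6 CPM, and this was the shallowest library of its group, with 1080792 counts outside Rn45s. Timp2 was highest in Kaede-green 72h replicate 4, at 8.56 CPM with the nearest at 5.10 CPM. Their causes were not tested.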

How the results depend on the processing

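RLE factors changed no call or direction of a member. With library size only, the number of members called higher in Kaede-red cells over both times (5) became 9, at 24h (4) 9 and at 72h (4) 8, and with library size outside Rn45s these became 7, 5 and 7. It became 2, 1 and 2 with at least 10 counts in every library, a filter that leaves fewer members, and 2, 2 and 2 with the Rn45s share as a covariate. The 1 member called lower over both times became 0 with library size only, library size outside Rn45s, no filter or the covariate. The 1 called lower at 24h became 0 in these and with at least 10 counts, only the groups compared or the replicate block. Plau at 24h lost its call with only the groups compared and with the covariate. In Kaede-red cells over time, the 2 called higher became 0 with library size only and 1 with the covariate, and the 0 called lower became 1 with only the groups compared. The change of the difference, with 0 called, gave 1 by DESeq2 and 1 with no filter, both Mmp14. With the longest transcript as the length, 7, 5, 8 and 5 of 10 members kept their rank in Kaede-green 24h, Kaede-red 24h, Kaede-green 72h and Kaede-red 72h.

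Several log2 values changed sign, among them those of 2 members called lower, Plaur over both times (-0.42) and Mmp19 at 24h (-0.95). Over both times, with library size only and outside Rn45s, Mmp19 was 1.83 and 0.41, Timp1 1.38 and 0.11 and Plaur 1.72 and 0.34. At 24h Mmp8 was 2.07 and 0.59, Timp1 1.48 and 0.015 and Plaur 1.77 and 0.37, and Mmp19 was 1.48 with library size only, and on that scale Plaur over both times and Mmp19 at 24h were called higher. At 72h Timp1 was 1.28 and 0.20 and Plaur 1.67 and 0.30. In Kaede-green cells over time, Mmp13 was 0.020, Mmp14 0.66, Timp1 0.16 and Plaur 0.63 with library size only, Mmp14 0.0079 and Plaur 0.16 outside Rn45s, Plaur 0.039 with at least 10 counts, and Plau -0.027 and Plaur 0.013 with the covariate. In Kaede-red cells over time, Mmp13 was 0.40 and Timp2 0.27 with library size only and Mmp13 0.13 with the covariate. For the change of the difference, Timp1 was -0.20, Plau -0.20 and Plaur -0.10 with library size only, and Plau -0.12 and Plaur -0.074 outside Rn45s. With library size only and outside Rn45s, the median gene was at 2.33 and 0.91 at 24h and at 2.04 and 0.69 at 72h. It was at 0.74 and 0.19 in Kaede-green cells over time and at 0.42 and -0.061 in Kaede-red cells over time. For the change of the difference it was at -0.33 and -0.27. Timp1 did not simply move with the median gene. In Kaede-green cells over time, its distance from the median gene was -0.88 with TMM and -0.58 with library size only. The causes of these shifts were not tested.

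Scaling also moved the split of called genes. At 24h, 309 genes were called higher and 415 lower with TMM, 9047 and 5 with library size only and 4364 and 78 outside Rn45s. At 72h these were 778 and 845, 8091 and 42, and 3286 and 303. Between times in Kaede-red cells they were 473 and 363 with TMM and 223 and 375 outside Rn45s, and for the change of the difference 42 and 32, and 8 and 99. Of the other pathway genes, 14 were then called higher and 1 lower over both times, 13 and 1 at 24h and 12 and 1 at 72h.

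Without each of the 16 libraries in turn, the members called lower ranged from 0 to 1 over both times and at 24h, and those called higher for the change of the difference from 0 to 1. The log2 fold change of Timp1 ranged from -0.81 to 0.013 over both times, from -1.15 to 0.052 at 24h, from -0.81 to 0.80 at 72h, from -2.04 to 0.00020 in Kaede-green cells over time and from -0.49 to 1.58 for the change of the difference. In Kaede-green cells over time Mmp12 ranged from -0.10 to 0.46, Mmp14 from -0.35 to 0.060, Mmp19 from -0.13 to 0.34, Plau from -0.15 to 0.38 and Plaur from -0.13 to 0.095, and the change of the difference for Plau from -0.19 to 0.31.

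With the replicate block, Mmp19 at 24h was -0.93 (adjusted p = 0.0603) and Timp2 at 72h was 0.87 (adjusted p = 0.0468), and no other call of a member changed. Over all genes, the block called 106 genes higher and 58 lower for the change of the difference, against 42 and 32. Libraries with the same number had correlations of 0.049 to 0.153 in their deviations at 24h and of -0.018 to 0.029 at 72h. Of 8 pairs, 2 correlated best with their own number, both at 24h. These weak correlations cannot show whether same-numbered libraries came from the same mouse. Timp2 at 72h was also called by DESeq2, with both scalings by library size, with no filter and with only the groups compared. Mmp8 at 72h was called with both scalings by library size and with no filter. Depth limited Mmp8, Mmp9, Mmp12, Mmp13 and Timp1 in Kaede-green cells, where they had 0 to 24 counts in a library.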
